A study of Homo sapiens with 36 samples.

Results

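Glutathione S-transferases were followed across all 12 groups of an RNA-seq experiment on HepG2, a human hepatoma cell line that keeps many traits of hepatocytes. The members were 10 named genes, GSTA1, GSTA2, GSTA4, GSTM3, GSTO1, GSTP1, GSTZ1, GSTK1, MGST1 and MGST2, and each was found by its symbol among the 18932 genes of the deposited count table. Cells in serum-free medium received vehicle (Ctrl), 50 µM docosahexaenoic acid (DHA), 70 µM propionate (PRO), 20 µM protocatechuic acid (PCA), DHA+PRO or DHA+PCA. Treatment lasted 6 h or 24 h. DHA was given bound to bovine serum albumin, and Ctrl was given matching albumin and solvents. Whether the PRO and PCA arms held albumin is not stated. Each of the 12 groups held 3 samples, and the RNA of 3 culture replicates was pooled in each sample, so that the 36 samples stand for 3 independent cultures per group of this 1 cell line. Total counts ran from 4659744 to 42326734 per sample with a median of 7034007, and the highest total belonged to replicate 2 of DHA+PRO at 24 h.

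Glutathione S-transferases join the thiol of glutathione to reactive electrophiles and thereby prepare them for export. The cytosolic alpha, mu, omega, pi and zeta classes are soluble dimers, the kappa enzyme resides in mitochondria and peroxisomes, and the MGST proteins are small membrane enzymes of a separate family. In liver, the alpha class makes up much of the soluble transferase protein, and several transferase genes are known targets of NRF2, a transcription factor that is released when electrophiles modify its inhibitor KEAP1. Polyunsaturated fatty acids such as DHA are prone to peroxidation, which yields aldehydes that alpha class enzymes can conjugate.

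Levels were compared between genes as RPKM, the reads scaled to counted length and to library total. GSTO1 at chr10:106013952-106027222 (hg19, plus strand), an omega enzyme that reduces dehydroascorbate and thiol adducts, had the highest mean RPKM of the 10, 111 over the 36 samples. GSTK1 (chr7:142960522-142966222), the kappa enzyme, followed with a mean RPKM of 74.3. MGST2 (chr4:140586922-140661899), which can make leukotriene C4, and MGST1 (chr12:16500577-16530123), the microsomal transferase of the endoplasmic reticulum and outer mitochondrial membrane, had mean RPKM values of 71.9 and 57.9. GSTO1 lay above GSTK1 in 36 of 36 samples. GSTK1 and MGST2 could not be separated by their spread, since GSTK1 was the higher in 12 of 18 samples at either time. The place of MGST1 turned with time. At 6 h MGST1 averaged 68.2 RPKM against 61.3 for GSTK1 and 59.2 for MGST2, and MGST2 exceeded it in 4 of 18 samples, whereas at 24 h MGST1 averaged 47.6 RPKM and MGST2 exceeded it in 18 of 18. These 4 genes held 84.9% of the summed mean RPKM of the 10 members.

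GSTA4 (chr6:52842746-52860178, minus strand), the alpha enzyme with a preference for 4-hydroxynonenal, had a mean RPKM of 28.8, and its range of 15.8 to 41.9 did not meet that of GSTZ1. GSTZ1 (chr14:77787230-77797940), the maleylacetoacetate isomerase of tyrosine breakdown, averaged 10.7 RPKM, and GSTM3 (chr1:110276554-110283660), a mu enzyme, averaged 7.56 RPKM. GSTZ1 exceeded GSTM3 in 35 of 36 samples. GSTA1 (chr6:52656178-52668664, minus strand) and GSTA2 (chr6:52614885-52628361, minus strand), the main alpha enzymes of human liver, stood low here with mean RPKM values of 5.22 and 3.72. GSTA1 was the higher of the pair in 18 of 18 samples at 6 h but in 7 of 18 at 24 h, where both averaged 3.81 RPKM. The alpha pair rested on 13 to 181 counts per sample for GSTA1 and 13 to 165 for GSTA2, so counting error is larger for them than for GSTO1 with 525 to 5087 counts.

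GSTP1 (chr11:67351066-67354124, plus strand), the pi enzyme of many tissues outside the hepatocyte, was almost without reads. It had 0 counts in 26 samples and at most 2 counts in any of the other 10. All 36 samples together gave 12 GSTP1 counts, or 0.0394 CPM (counts scaled to the library total) with an exact 95% Poisson interval from 0.0203 to 0.0688 that covers counting error only. In single samples, 3 counts correspond to 0.0709 to 0.644 CPM. At 24 h the 9 samples without DHA averaged 0.097 RPKM (at most 2 counts) and the 9 with DHA 0.0028 RPKM (at most 1 count). A difference between groups was not read from so few counts. GSTP1 was the only member that did not pass the filter on low counts, and 9 of the 10 members were tested at each time.

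**Figure D1:**
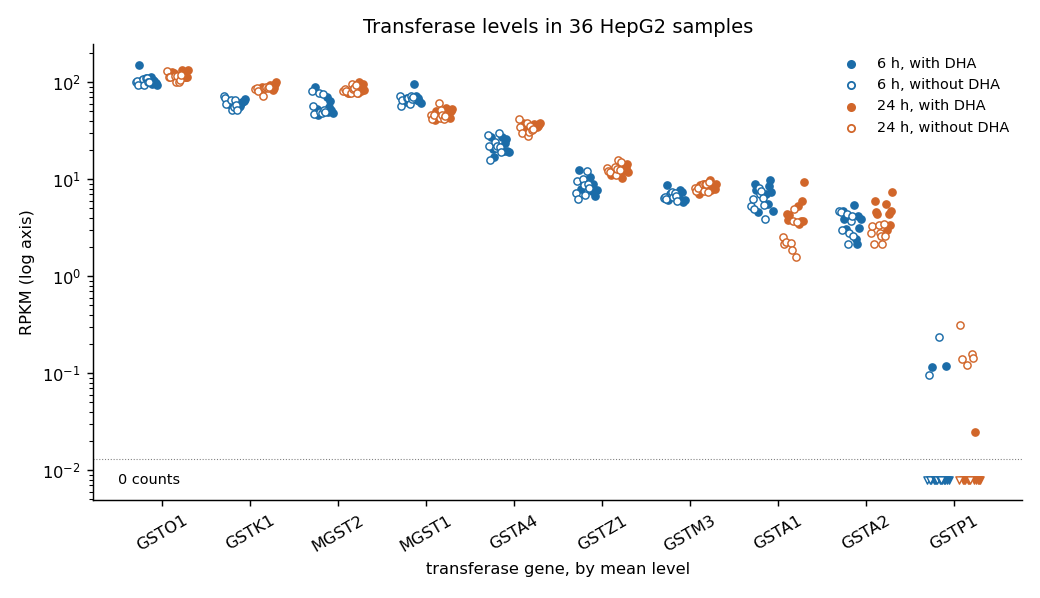
RPKM (log axis) of the 10 transferase genes in each of the 36 samples, in blue at 6 h and orange at 24 h, filled with DHA and open without. Genes run from GSTO1 with a mean of 111 RPKM to GSTP1, whose samples with 0 counts are drawn as triangles under the dotted line.

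The sequence just before the start of transcription is given for 3 genes, GSTA1 and GSTA2 because they are the pair with the largest DHA difference, and GSTP1 because of its near absence. All are RefSeq promoter entries on GRCh38.p14, 250 bases up to the base before the start, 5′ to 3′ on the gene's strand, at chr6:52803817-52804066 for GSTA1, chr6:52763476-52763725 for GSTA2 and chr11:67583562-67583811 for GSTP1. Capitals mark the bases that differ between GSTA1 and GSTA2, and in GSTP1 the match to the motif TGACNNNGC, the core of the antioxidant response element that NRF2 binds.
GSTA1: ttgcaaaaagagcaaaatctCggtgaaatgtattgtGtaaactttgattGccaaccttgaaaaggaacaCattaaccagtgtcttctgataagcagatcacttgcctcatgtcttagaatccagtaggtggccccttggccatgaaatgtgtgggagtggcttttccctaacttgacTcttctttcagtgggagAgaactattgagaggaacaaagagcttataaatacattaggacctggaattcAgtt
GSTA2: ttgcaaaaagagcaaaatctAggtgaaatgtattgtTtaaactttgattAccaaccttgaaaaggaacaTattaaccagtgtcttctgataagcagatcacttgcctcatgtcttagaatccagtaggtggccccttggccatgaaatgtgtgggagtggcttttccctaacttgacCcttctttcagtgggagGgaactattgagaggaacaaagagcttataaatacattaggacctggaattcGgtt
GSTP1: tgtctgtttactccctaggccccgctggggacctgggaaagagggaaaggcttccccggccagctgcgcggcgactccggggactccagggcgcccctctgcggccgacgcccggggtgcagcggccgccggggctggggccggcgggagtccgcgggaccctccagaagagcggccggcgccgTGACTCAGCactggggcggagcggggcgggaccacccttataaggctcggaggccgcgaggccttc

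The GSTA1 and GSTA2 windows differed at 7 of 250 bases (97.2% identity), and neither held TGACNNNGC on either strand. The GSTP1 window held 1 match, which begins 66 bases before the start, and 28 CG dinucleotides, against a median of 11 over the 35116 promoter entries. GSTZ1, with a mean of 10.7 RPKM, had 28 CG dinucleotides as well, so this count was not particular to GSTP1. Over all entries, 10.9% held the motif within these 250 bases. Of 19 further NRF2 targets 13 had an entry, and 2 of these held the motif. With numbers this small, nothing is read from its lack in GSTA1 and GSTA2. Among the 9 members with an entry, GSTA4 and GSTO1 also held it, GSTA4 once and GSTO1 at 2 places. These are matches of letters and say nothing of occupancy. In their transcripts GSTA1 and GSTA2 also share sequence, since 22.1% of the 50-base windows of GSTA1 occur unchanged in GSTA2, and how the authors' counting divided such reads is not given in the sources used here.

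To ask what DHA did, the 9 samples that received it, alone or combined, were set against the 9 without it at each time, in edgeR's quasi-likelihood test, with p-values adjusted by Benjamini-Hochberg over all genes. At 24 h, GSTA2 rose 1.67-fold (log2 fold change 0.74, SE 0.17, adjusted p = 0.0277). GSTA1 showed a log2 fold change of 0.80 (SE 0.20, 1.75-fold) with an adjusted p of 0.0503, just above the limit of 0.05, so that 1 of 9 members was called at 24 h. Over all 11893 genes, 1.23% were called in this comparison, 0.286% as higher and 0.942% as lower. The other 7 members had log2 fold changes between -0.09 and 0.11, with adjusted p-values of 0.548 and above. Column names carry the same pool numbers in every arm, and with the replicate number as a block both genes were called, GSTA1 at 0.85 (SE 0.17, adjusted p = 0.0044) and GSTA2 at 0.74 (SE 0.18, adjusted p = 0.0164), so that 2 of 9 members passed where 3.09% of genes were called. In 9 of 9 pairs of samples with the same number, each arm with DHA against the same arm without, GSTA1 and GSTA2 were higher with DHA. These pairs come from 3 replicate numbers, each read as 1 culture experiment, so they are not 9 independent agreements. The median log2 fold change of the 9 members was 0.07, against 0.01 over all genes. In bulk RNA, a change in every cell and a change in some of the cells cannot be told apart.

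The GSTA1 values at 24 h were 2.53, 2.14 and 2.25 RPKM in Ctrl, 2.20, 1.85 and 3.73 in PRO, and 4.91, 1.56 and 3.60 in PCA. With DHA they were 4.41, 3.83 and 4.25 RPKM in DHA, 5.31, 3.44 and 3.74 in DHA+PRO, and 5.91, 3.71 and 9.27 in DHA+PCA. All 9 samples with DHA lay above the median of those without, but only 3 of them lay above the highest sample without DHA, which was replicate 1 of PCA. Replicate 3 of DHA+PCA stood apart as the highest GSTA1 sample at 24 h.

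The GSTA2 values at 24 h were 2.82, 3.32 and 2.16 RPKM in Ctrl, 3.35, 2.77 and 2.58 in PRO, and 2.17, 3.46 and 2.63 in PCA. With DHA they were 5.99, 4.58 and 4.42 RPKM in DHA, 5.62, 3.02 and 4.36 in DHA+PRO, and 3.38, 4.68 and 7.31 in DHA+PCA. For GSTA2, 7 of 9 samples with DHA lay above every sample without it. The remaining pair were replicate 2 of DHA+PRO, the deeply sequenced sample with 165 GSTA2 counts, and replicate 1 of DHA+PCA. Replicate 3 of DHA+PCA was again the highest.

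Without the block, the GSTA2 call depended on single libraries. Of 18 fits that each left out 1 library, 10 kept the GSTA2 call. It was lost without replicate 3 of Ctrl, replicate 1 of DHA, replicate 3 of PRO, replicates 1 or 3 of PCA, replicates 1 or 3 of DHA+PRO, or replicate 3 of DHA+PCA, with GSTA2 adjusted p-values from 0.0540 to 0.0971. GSTA1 passed in 3 of the 18 fits, without replicate 3 of PRO (adjusted p = 0.0278), replicate 1 of PCA (adjusted p = 0.0215) or replicate 2 of DHA+PCA (adjusted p = 0.0156). The log2 fold change itself stayed between 0.67 and 0.92 for GSTA1 and between 0.62 and 0.84 for GSTA2. Library names begin with SM18 or SM19, and the mean log2 difference was 0.83 and 0.74 within these series for GSTA1 and 0.55 and 1.04 for GSTA2. At 24 h the SM19 libraries were those numbered 3, so the series are not separate from the replicate numbers. Among samples numbered 1, 2 and 3 the difference was 0.74, 0.92 and 0.74 for GSTA1, and 0.79, 0.32 and 1.04 for GSTA2.

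**Figure D2:**
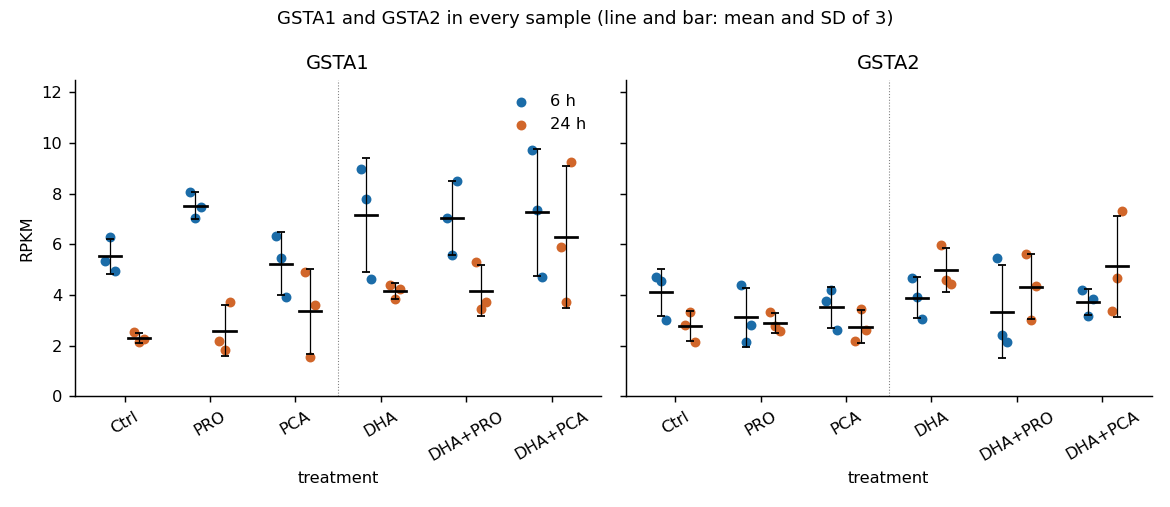
RPKM of GSTA1 (left) and GSTA2 (right) in each sample of the 12 groups, blue at 6 h and orange at 24 h, with the mean and SD of 3 samples in black. At 24 h the GSTA2 samples with DHA lie between 3.02 and 7.31 RPKM, and those without DHA between 2.16 and 3.46.

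At 6 h no member was called, and 0.202% of the 11872 genes were, nor was one with the block, where 0.539% were. At that time GSTA1 had a log2 fold change of 0.25 (SE 0.15) and GSTA2 of 0.04 (SE 0.19), both with an adjusted p of 0.9995. GSTA1 ranged from 4.64 to 9.71 RPKM with DHA (median 7.37) and from 3.91 to 8.07 without (median 6.28), with wide overlap. GSTA2 ranged from 2.13 to 5.47 RPKM with DHA (median 3.85) and from 2.16 to 4.73 without (median 3.75). The other 7 members had 6 h log2 fold changes between -0.03 and 0.05, with SEs from 0.07 to 0.14. In the direct test of a change in the DHA effect from 6 h to 24 h, in a joint fit of 36 samples, no member was called and 0.0% of 12046 genes were. GSTA2 had a log2 difference of 0.69 (SE 0.27) and GSTA1 of 0.55 (SE 0.26), unadjusted p 0.0135 and 0.0452, and both had an adjusted p of 0.9999. In that test 368 genes had an unadjusted p under 0.05.

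**Figure D3:**
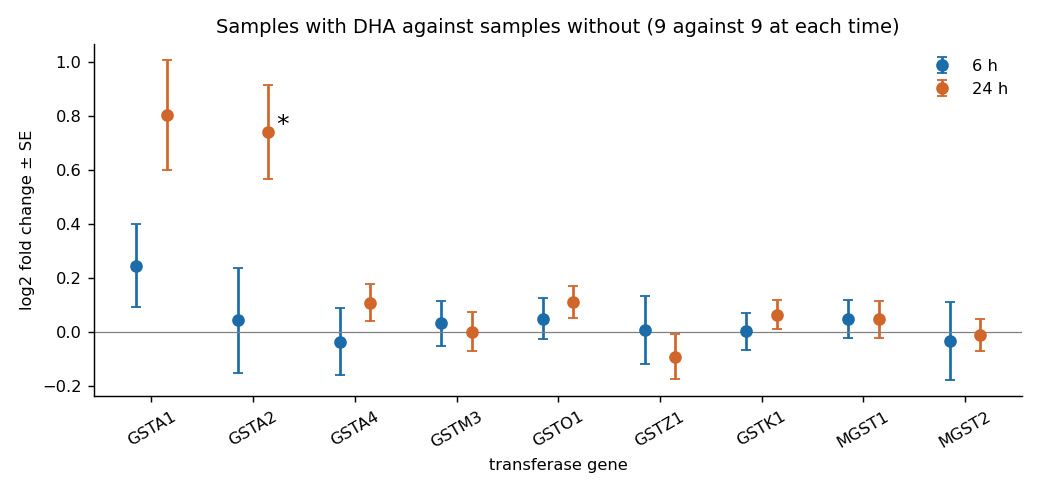
Log2 fold change ± SE of 9 transferase genes between 9 samples with DHA and 9 without, at 6 h (blue) and 24 h (orange); the asterisk marks the call. GSTA1 (0.80) and GSTA2 (0.74) stand above the rest at 24 h, and the other members lie near 0.

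The arms with DHA were then compared with Ctrl one by one. They share the same 3 Ctrl samples. At 24 h no member was called in DHA (0.193% of genes called), DHA+PRO (0.395%) or DHA+PCA (0.286%). The GSTA1 log2 fold change against Ctrl was 0.85 (SE 0.37, adjusted p = 0.801) in DHA and 0.79 (SE 0.36, adjusted p = 0.594) in DHA+PRO. In DHA+PCA it was 1.46 (SE 0.36, adjusted p = 0.102), where the GSTA1 mean was 6.30 ± 2.80 RPKM (SD, n = 3) against 2.31 ± 0.20 in Ctrl. With the replicate block GSTA1 was called in DHA+PCA (1.43, SE 0.30, adjusted p = 0.015), 1 of 9 members where 1.09% of genes were called. The GSTA2 log2 fold change was 0.85 (SE 0.30, adjusted p = 0.624) in DHA, 0.55 (SE 0.30, adjusted p = 0.682) in DHA+PRO and 0.91 (SE 0.31, adjusted p = 0.426) in DHA+PCA. Samples of DHA and Ctrl did not overlap for 3 of 9 members, GSTA1, GSTA2 and MGST2, where 10.7% of all genes did not overlap. MGST2 was the lower in DHA alone, at 78.0 ± 1.71 RPKM (SD, n = 3) against 83.0 ± 2.38 in Ctrl. In DHA+PRO and DHA+PCA its means lay above Ctrl, at 86.39 ± 11.77 and 88.45 ± 7.093 RPKM. Samples of DHA+PRO and Ctrl did not overlap for 2 members, GSTA1 and MGST1 (15.1% of all genes). Those of DHA+PCA and Ctrl did not for 2, GSTA1 and GSTA2 (12.7% of all genes).

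The combinations were also set against the same compound without DHA at 24 h, and no member was called in DHA+PRO against PRO (0.227% of genes called) or DHA+PCA against PCA (0.277%). GSTA1 had a log2 fold change of 0.64 (SE 0.35, adjusted p = 0.559) against PRO and 0.92 (SE 0.34, adjusted p = 0.667) against PCA. GSTA2 had 0.47 (SE 0.29, adjusted p = 0.602) and 0.90 (SE 0.31, adjusted p = 0.574). GSTA1 and GSTA2 samples overlapped in both comparisons. None of the 9 members was free of overlap between DHA+PRO and PRO (12.9% of all genes), and GSTA4 alone was between DHA+PCA and PCA (14.6% of all genes).

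PRO and PCA alone left all 9 members without a call, at 24 h (0.0% of genes called in each) and at 6 h (0.0% in each). Samples did not overlap with Ctrl for 1 of 9 members in PCA at 24 h, GSTK1 (10.3% of all genes). In PRO at 6 h they did not for 1, GSTA1 (7.2% of all genes), with a log2 fold change of 0.44 (SE 0.26). In edgeR's test at 24 h, 716 genes had an unadjusted p under 0.05 for PRO and 454 for PCA, and none of the 9 members was among them. GSTA1 had a log2 fold change against Ctrl of 0.54 (SE 0.39) in PCA and 0.15 (SE 0.39) in PRO at 24 h. GSTA2 had 0.01 (SE 0.33) in PCA and 0.08 (SE 0.32) in PRO.

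To see what PRO or PCA added on top of DHA, each combination was compared with DHA alone. Whether either compound altered the response to DHA itself, relative to the same compound without DHA, was not tested. No member was called in DHA+PRO or DHA+PCA against DHA at 24 h, where 0.0% of genes were called in each and 527 and 276 genes had an unadjusted p under 0.05. The GSTA1 log2 difference was -0.06 (SE 0.33) for DHA+PRO and 0.61 (SE 0.33, adjusted p = 0.9992) for DHA+PCA. For GSTA2 it was -0.30 (SE 0.28) and 0.06 (SE 0.28). With SEs of this size, a difference as large as the pooled DHA effect could be missed. At 6 h no member was called in DHA (0.0168% of genes called), DHA+PRO (0.0168%) or DHA+PCA (0.0168%) against Ctrl, nor in either combination against DHA (0.0% in each).

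More members were called between the times than in any comparison of treatments. Among the 9 samples without DHA at each time, 7 of 9 members were called between 6 h and 24 h, 5 as higher and 2 as lower, in a comparison where 48.4% of genes were called, 24.3% as higher and 24.1% as lower. GSTA1 fell by 1.16 on the log2 scale (SE 0.19, adjusted p = 8.35e-06), from a median of 6.28 to 2.25 RPKM. MGST1 fell by 0.51 (SE 0.07, adjusted p = 3.4e-07), from a median of 68.8 to 45.9 RPKM. GSTA2 had a log2 fold change of -0.35 (SE 0.19, adjusted p = 0.132), so its decline did not pass the test.

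GSTZ1 (0.58, SE 0.10), GSTA4 (0.56, SE 0.10), MGST2 (0.51, SE 0.12), GSTK1 (0.48, SE 0.06) and GSTM3 (0.31, SE 0.08) rose by these log2 fold changes, with adjusted p-values of 0.0011 or less. GSTM3 was the member whose samples without DHA did not overlap between the times, with 6.02 to 7.30 RPKM at 6 h and 7.36 to 9.36 RPKM at 24 h. The share of all genes free of such overlap was not counted, so nothing particular to GSTM3 is read from it. GSTA4 went from a median of 22.1 to 32.7 RPKM, and GSTK1 from 60.4 to 87.3 RPKM. GSTO1, the most abundant member, had 0.14 (SE 0.07, adjusted p = 0.0998), and with upper quartile scaling it was called at 0.17 (adjusted p = 0.0414). The 7 calls held in each alternative and in each fit with 1 library left out.

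**Figure D4:**
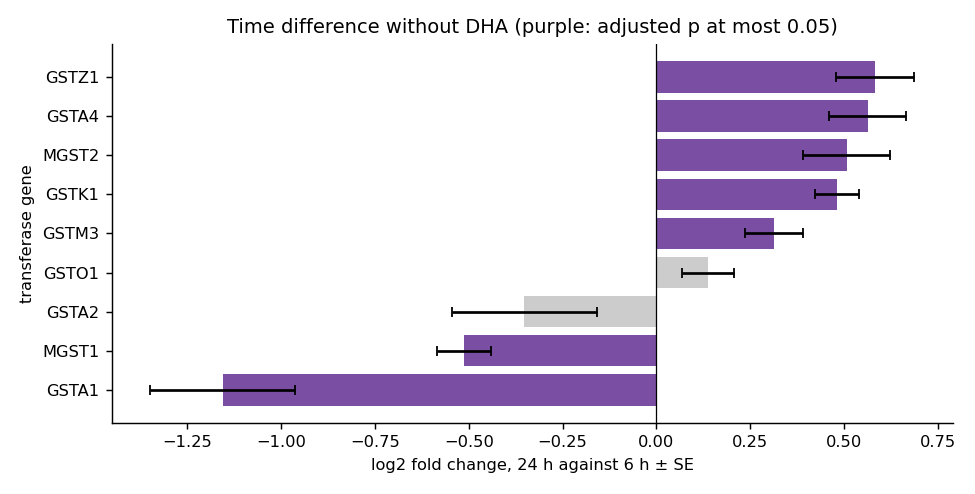
Log2 fold change ± SE between 24 h and 6 h in samples without DHA, for 9 transferase genes, with called genes in purple. GSTA1 (-1.16) and MGST1 (-0.51) extend to the left, and 5 called members from GSTM3 (0.31) to GSTZ1 (0.58) extend to the right.

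MGST2 differed among the 6 h samples by replicate number, in all 6 treatments. The 6 samples numbered 1 at 6 h had 63.5 to 89.5 RPKM, and the 12 numbered 2 or 3 had 46.2 to 56.5 RPKM. At 24 h the MGST2 samples numbered 1 had 77.1 to 86.5 RPKM and lay among the rest. The mean log2 difference between the times for MGST2 was accordingly 0.06 among samples numbered 1, 0.81 among those numbered 2 and 0.76 among those numbered 3. In GSTO1, replicate 1 of DHA at 6 h was high at 152 RPKM, while the other 6 h samples lay at or below 114 RPKM.

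Other genes of glutathione metabolism were counted from lists of known function. Of 8 tested relatives (among them GSTT1 with a mean RPKM of 69.5, MGST3 with 20.4 and GSTM4 with 15.1), none was called for DHA at 24 h, and their median log2 fold change was 0.02. GSTT1, a theta enzyme, had -0.05 (SE 0.07), MGST3 0.03 (SE 0.08) and GSTM4 -0.02 (SE 0.08). With time 7 of these 8 rose and 1 fell, where 24.3% of all genes rose and 24.1% fell. The one that fell was GSTCD at -0.36 (SE 0.12), which was named after its value was seen.

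For glutathione synthesis and turnover, 2 of 17 tested genes rose with DHA at 24 h and none fell (list median 0.15 on the log2 scale). Of all genes tested, 0.286% were called as higher in that comparison and 0.942% as lower. GCLC, the catalytic subunit of the rate-limiting ligase, rose by 0.32 (SE 0.06, adjusted p = 0.0016), and SLC7A11, the cystine importer, by 0.57 (SE 0.13, adjusted p = 0.0207). ANPEP, SLC3A2 and GGCT were the most abundant genes of that list, at 108, 93.9 and 66.7 RPKM. Among 16 glutathione-using enzymes, GPX2, the gastrointestinal glutathione peroxidase, rose by 0.40 (SE 0.06, adjusted p = 0.00012), and none fell. GPX2 at 504 RPKM, GPX4 at 283 and PRDX6 at 217 led that list. None of 11 genes of NADPH supply was called, IDH1 (276 RPKM), TALDO1 (155 RPKM) and PGD (127 RPKM) included. With the replicate block, 5 of the 17 genes of glutathione synthesis and turnover rose and 1 fell, where 3.09% of all genes were called. DPEP1 (0.31, SE 0.07), SLC3A2 (0.24, SE 0.06) and GGCT (0.24, SE 0.06) joined GCLC and SLC7A11 there, and GGT7 fell by 0.22 (SE 0.06). With that block GSR, glutathione reductase, also rose by 0.18 (SE 0.04), which made 2 of 16, and TALDO1 (0.17, SE 0.04) and MTHFD2 (0.29, SE 0.08) rose among the 11 genes of NADPH supply. DPEP1, GGT7, GSR and MTHFD2 were named after their values were seen.

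Among the 7 lists, further NRF2 targets gave the most calls for DHA at 24 h. In this list 10 of 19 tested genes rose with DHA at 24 h and none fell, and the median log2 fold change was 0.30 against 0.01 over all genes. The share of all genes called as higher was 0.286%. The aldo-keto reductases AKR1B10 (0.87, SE 0.09), AKR1C2 (0.79, SE 0.11), AKR1C1 (0.68, SE 0.11) and AKR1C3 (0.38, SE 0.06) were among them, and the AKR1C genes are close copies between which reads may be divided. OSGIN1 (0.70, SE 0.12), NQO1 (0.38, SE 0.05), HMOX1 (0.32, SE 0.07), TXNRD1 (0.32, SE 0.05), SRXN1 (0.30, SE 0.05) and ABCC3 (0.30, SE 0.07) made up the rest. The log2 fold changes of GSTA1 and GSTA2 lay above the list median of 0.30, near the higher genes of the list, with wider errors. A common cause was not tested. At 6 h, 4 of the 19 genes had risen, AKR1B10 (0.34, SE 0.07), AKR1C1 (0.34, SE 0.06), AKR1C2 (0.33, SE 0.06) and OSGIN1 (0.63, SE 0.12), and with the replicate block 7 had. Of all genes, 0.202% were called at 6 h, and 0.539% with that block. FTL and FTH1, the ferritin chains and the most abundant genes of the list at 9836 and 870 RPKM, had 0.19 (SE 0.07) and 0.17 (SE 0.06) at 24 h and were not called.

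**Figure D5:**
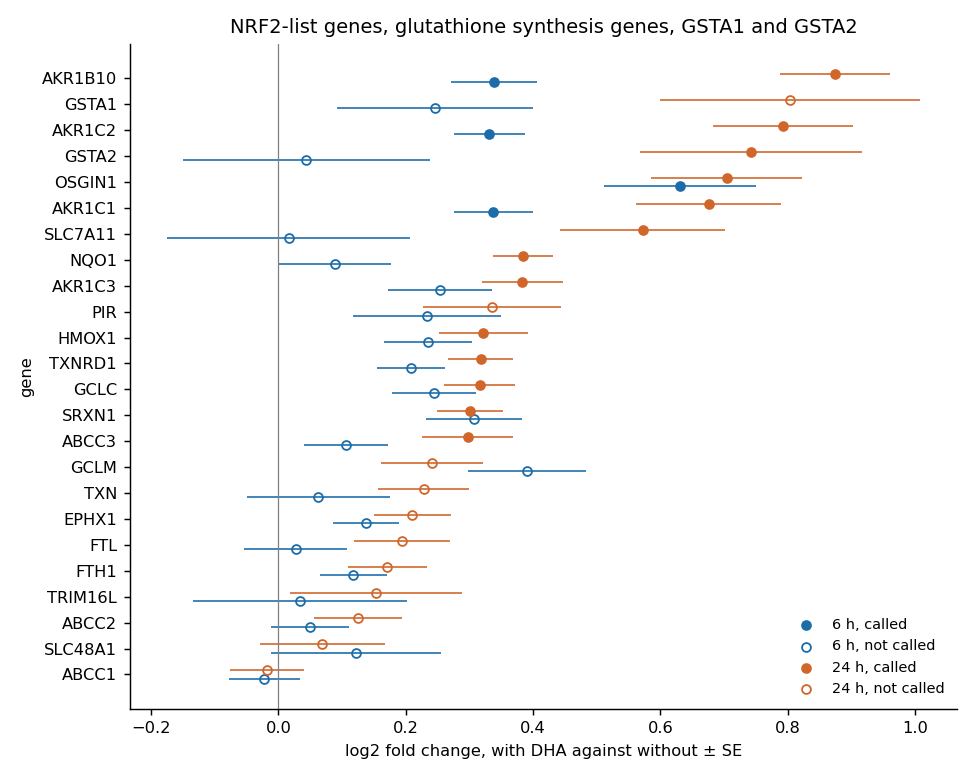
Log2 fold change ± SE with DHA against without, at 6 h (blue) and 24 h (orange), for 19 NRF2-list genes, GCLC, GCLM, SLC7A11, GSTA1 and GSTA2; filled points were called. AKR1B10 is at the top (0.87 at 24 h), and GSTA1 (0.80) and GSTA2 (0.74) lie near it with longer bars.

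None of 18 regulators was called for DHA at 24 h, and with the replicate block 1 was, the aryl hydrocarbon receptor AHR at -0.24 (SE 0.07), named after its value was seen. NFE2L2, which encodes NRF2, had a log2 fold change of 0.09 (SE 0.05) at 97.6 RPKM. HNF4A (97.9 RPKM), a hepatocyte transcription factor, and NFE2L1 (57.8 RPKM), a relative of NRF2, were not called either. The label was checked with marker genes. All 12 hepatocyte markers passed the filter, and their summed level at 24 h was 35400 to 39420 RPKM without DHA and 33820 to 41320 with it. TF (transferrin) was the hepatocyte marker of 12 that fell with DHA at 24 h, by 0.20 (SE 0.05), and with the replicate block APOB and TTR fell as well, 3 of 12. Of all genes, 0.942% were called as lower at 24 h, and 3.09% in either direction with the replicate block. All 4 endothelial markers stayed under 0.5 RPKM in every sample and none was tested. Of 6 leukocyte markers 3 stayed under 0.5 RPKM, and LYZ fell by 0.28 (SE 0.06) within a list sum of 1171 to 1710 RPKM without DHA and 1052 to 1357 with it. Of 6 fibroblast markers, with sums of 2.50 to 4.93 and 2.12 to 6.33 RPKM, PDGFRB fell by 0.46 (SE 0.11). Of 5 cholangiocyte markers 2 stayed under 0.5 RPKM. The list had sums of 366 to 426 RPKM without DHA and 338 to 403 with it, and none of the 3 tested was called. The part of these marker genes in the transferase values was not tested.

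The genes whose mean log2 level over the 12 groups ran most like a member were sought among 11944 genes by Pearson's r, as a description over group means that share their libraries. For GSTA2 they were ALDH5A1 (r = 0.89), MOCS2 (r = 0.848) and STK32C (r = 0.809). For GSTA1 they were TIMM50 (r = 0.978), PEBP1 (r = 0.968) and CES1 (r = 0.965).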

How the data were processed

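RNA of HepG2 cells was measured by RNA-seq in 36 samples, 3 for each of 6 treatments at 6 h and 24 h, and groups and replicate numbers were taken from the labels. The authors prepared libraries with a TruSeq kit, aligned reads with STAR to hg19 and deposited raw counts of reads per RefSeq gene without normalization, together with the counted length in bases (an other unit). The deposited starts count from 0, and 1 was added.

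The members and gene lists were chosen with earlier results of these data known. All 10 members are given with values. List genes are named where they were called in a pooled DHA effect or against Ctrl, or were among the 3 highest of their list by mean RPKM; 1 gene that this rule names is not reported here.

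Counts were analysed with edgeR 4.0.16 in R 4.3.3. Genes were kept by filterByExpr and library sizes were scaled by TMM. The quasi-likelihood F test was run on the 18 samples of either time, and on all 36 for differences between times. A gene was called where its Benjamini-Hochberg adjusted p, over all genes that passed the filter, did not exceed 0.05 and its average log2 CPM was above 0. The SE is the log2 fold change divided by the root of F. RPKM used the deposited lengths and TMM-scaled totals, and shows levels without a test. Intervals cover counting error only, since molecular identifiers are not described. No 2 libraries were duplicates (lowest chi-square per degree of freedom 1.93 over 630 pairs). The deposited column names carry the same pool numbers for a replicate number in every arm, so equal numbers were read as 1 culture experiment. Deviations from group means of samples with the same number correlated by 0.153 on average at 24 h (from -0.182 to 0.341) and 0.256 at 6 h (from -0.116 to 0.462), and 17 and 16 of 18 samples correlated best with their own number. Values with the replicate number as a block stand beside results that it changes. The fit was tested on simulated counts. Alternatives were DESeq2 1.42.0 (size factors and Wald test), upper quartile scaling, no filter, no limit on log2 CPM, blocks for replicate number or library series, thinning of the deepest library, fits restricted to the pair of groups compared, and omission of each library in turn. A GC-content offset and a block within each time were added after seeing the data. Promoter sequences came from a RefSeq table on GRCh38.p14, where 9 of the 10 members had an entry (not MGST2), and coordinates of genes are those of the hg19 count table. The deposited table holds no RT-qPCR or lipid values, and these were not analysed here.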

Additional observations from a re-analysis of the deposited data

How the results depend on the processing

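The count of members called in the pooled DHA effect at 24 h was 1, and it was 2, with GSTA1 added to GSTA2, under DESeq2's Wald test, with no filter on low counts, with the library series block, with the GC-content offset, with the replicate block and with both of the last; leaving out each library in turn gave 0 to 2. Over all alternatives other than leaving out a library, adjusted p-values ran from 0.00066 to 0.0633 for GSTA1 and from 0.0031 to 0.0278 for GSTA2. The count in DHA+PCA against Ctrl at 24 h was 0, and it was 1 (GSTA1) with no filter (adjusted p = 0.0041), with the replicate block (0.015), with the GC-content offset and replicate block (0.0028) and with only the 2 groups compared (0.023), and 0 to 1 when each library was left out; the cause was not tested. The other counts of called members stayed within 1.5 times their value in every alternative, and none of the fold changes of a called member reversed. The replicate block changed no other call of a member. Without length in the level, GSTM3 came before GSTZ1 and GSTK1 moved to the fourth place by mean CPM. GSTA1 and GSTA2 rest on few counts, and from GSTP1 no difference between groups is read at this depth.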

Other observations

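Without DHA, 14 of the 19 further NRF2 targets fell from 6 h to 24 h and 1, HMOX1 (heme oxygenase), rose by 0.89 (SE 0.07), in a comparison where 24.1% of all genes fell. AKR1C2 fell by 2.29 (SE 0.10), AKR1C1 by 2.01 (SE 0.11), AKR1B10 by 1.28 (SE 0.08) and TXNRD1 by 0.99 (SE 0.05), all on the log2 scale. The list median was -0.47, against -0.01 over all genes. Among the called members, GSTA1 at -1.16 and MGST1 at -0.51 lay on the side of these genes. GSTA4, GSTK1, GSTZ1, GSTM3 and MGST2 lay on the other, and the cause was not tested. Of the 17 genes of glutathione synthesis and turnover, 7 rose and 5 fell with time, and GCLC fell by 0.88 (SE 0.06). Among 16 glutathione-using enzymes 2 rose and 5 fell, GPX2 by 0.72 (SE 0.05), and among 11 genes of NADPH supply 5 rose and 3 fell (5 and 5 with the replicate block). These counts stand beside 24.3% of all genes that rose and 24.1% that fell.

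Other conjugating enzymes were also counted with DHA at 24 h, where 0.286% of all genes were called as higher. SULT1A2, a sulfotransferase, was the 1 gene called of 13 tested, at 0.22 (SE 0.06, edgeR adjusted p = 0.0498), and the list median was 0.12. SULT1A1 (94.3 RPKM) and UGT2B10 (71.3 RPKM) were among the most abundant of the list. Over time 5 of the 13 rose and 3 fell, and among the 18 regulators 6 rose and 4 fell, where 24.3% of all genes rose and 24.1% fell. With time NFE2L2 had -0.03 (SE 0.06).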
